A study of Homo sapiens with 12 samples.

Results

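FOLH1, STEAP1, STEAP2, PSCA, CD276, ERBB2, F3, CD46 and NECTIN4 encode cell-surface proteins of prostate and other carcinomas against which antibodies, radioligands or engineered T cells have been directed. These 9 genes, of 63241 genes counted in each library, were chosen by symbol for that use. All 9 were among the 19373 genes with enough counts to be tested, with 1248 (F3) to 58886 (FOLH1) counts in a library. The RNA sequencing covers 12 libraries, all labelled as the established human prostate cancer cell line MDA-PCa-2b. The growth protocol also mentions MDA-PCa-2a, and the labels do not settle which line its fibronectin step refers to. The labels divide the libraries into 4 groups of 3: NT, knock down 1 of DHODH (KD1), knock down 2 of DHODH (KD2), and a rescue of the second knock down (KDR), so that by its name KDR carries the KD2 modification too. DHODH is dihydroorotate dehydrogenase, an enzyme of the inner mitochondrial membrane needed to make pyrimidines de novo. The labels leave out what NT stands for, which construct was used, whether each group is 1 clone, how the rescue was made, and any time or dose. Nothing states that the 3 libraries of a group came from separate cultures, so the p-values measure only the spread between these libraries, which may be technical.

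The 9 proteins have unlike jobs at the membrane. FOLH1 is prostate-specific membrane antigen (PSMA), a folate hydrolase and glutamate carboxypeptidase that is the target of the PSMA radioligands. It is abundant in prostate epithelium and in many prostate cancers. STEAP1 and STEAP2 belong to a family of transmembrane metalloreductase-like proteins, and PSCA is a small protein of the LY6/uPAR family held by a glycolipid anchor. CD276 (B7-H3) is an immune checkpoint ligand of the B7 family. ERBB2 (HER2) is a receptor tyrosine kinase that pairs with EGFR and ERBB3. F3 (tissue factor) is the receptor that starts the extrinsic coagulation pathway, CD46 is a cofactor for the inactivation of complement, and NECTIN4 is a cell adhesion molecule of the nectin family.

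The DHODH transcript did not separate KD1 or KD2 from NT as their names would. In CPM (counts scaled to a common library size) its levels were 9.19, 13.4 and 8.96 in the NT libraries, 11.0, 10.4 and 9.63 in those of KD1, 11.4, 13.0 and 14.9 in those of KD2, and 18.9, 19.3 and 17.5 in those of KDR. It passed no test as lower in KD1 (log2 difference from NT -0.03) or KD2 (0.31). It was higher in KDR than in NT (0.82, edgeR adjusted p = 1e-04) and than in KD2 (0.51, adjusted p = 0.0064). KD1, KD2, KDR and NT are therefore below the names of libraries labelled that way, and no direction rests on DHODH having been lowered. Library totals ran from 23786288 to 38240369 counts. The second NT library stood apart from its group: the chi-square per degree of freedom between NT libraries was 25.6 and 27.3 in the pairs that include it and 8.34 in the other, and the biological coefficient of variation of NT fell from 15.8% to 8.57% without it, beside 5.52% to 7.16% in the other groups. Of 9 luminal prostate markers all were present, led by KLK3. Markers of basal, neuroendocrine, fibroblast, immune and endothelial cells summed to at most 8.00, 9.56, 5.12, 0.892 and 0.707 CPM in any library. The basal marker KRT5 was at 0 in all libraries of NT, KD2 and KDR, and the immune markers CD3E and CD68 were at 0 in every library. Of 3 tested basal markers 1 was higher and 1 lower in KD2 than in NT (17.8% and 18.2% of all genes). KRT14 averaged 1.80 CPM in NT, 3.32 in KD2 and 2.98 in KDR, higher than NT in both (edgeR adjusted p = 0.012 and 0.045). KRT15 averaged 4.35 CPM in NT, 2.94 in KD2, where it was lower (edgeR adjusted p = 0.041), and 3.78 in KDR.

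Promoter windows from RefSeq (GRCh38.p14, 250 bases before to 50 after the start) were found for 7 of the 9 genes. The 4 below belong to a pair of neighbouring genes that was low only in KD2 by the tests reported further on, STEAP1 and STEAP2, and to a pair that was low in KD2 and KDR alike, F3 and NECTIN4. Each is printed 5′ to 3′ along the gene's strand, and capitals mark matches, on either strand, to the 4 motifs searched: TGAGTCA (AP-1), GGGCGG (GC box), CCAAT and TATAAA. Of these motifs, CCAAT had no match in the 4 windows printed.
STEAP1, chr7:90154219-90154518, plus strand: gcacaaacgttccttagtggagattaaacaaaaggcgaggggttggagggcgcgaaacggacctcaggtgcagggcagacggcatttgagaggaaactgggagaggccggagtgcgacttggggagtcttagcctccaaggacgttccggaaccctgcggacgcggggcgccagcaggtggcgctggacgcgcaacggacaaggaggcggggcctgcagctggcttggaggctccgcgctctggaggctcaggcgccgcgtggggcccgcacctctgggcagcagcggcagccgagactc
STEAP2, chr7:90211490-90211789, plus strand: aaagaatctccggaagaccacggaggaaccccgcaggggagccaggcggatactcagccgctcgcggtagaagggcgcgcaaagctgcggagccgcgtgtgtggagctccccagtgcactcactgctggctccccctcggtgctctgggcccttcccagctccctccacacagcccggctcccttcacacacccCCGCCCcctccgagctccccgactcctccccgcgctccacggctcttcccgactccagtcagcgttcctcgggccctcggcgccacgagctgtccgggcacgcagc
F3, chr1:94541710-94542009, minus strand: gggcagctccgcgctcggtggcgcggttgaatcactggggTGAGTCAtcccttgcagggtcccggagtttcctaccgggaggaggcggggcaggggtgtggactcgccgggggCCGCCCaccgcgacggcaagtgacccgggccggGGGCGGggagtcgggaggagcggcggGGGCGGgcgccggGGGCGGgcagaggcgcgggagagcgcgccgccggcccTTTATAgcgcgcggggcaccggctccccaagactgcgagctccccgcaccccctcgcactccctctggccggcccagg
NECTIN4, chr1:161089509-161089808, minus strand: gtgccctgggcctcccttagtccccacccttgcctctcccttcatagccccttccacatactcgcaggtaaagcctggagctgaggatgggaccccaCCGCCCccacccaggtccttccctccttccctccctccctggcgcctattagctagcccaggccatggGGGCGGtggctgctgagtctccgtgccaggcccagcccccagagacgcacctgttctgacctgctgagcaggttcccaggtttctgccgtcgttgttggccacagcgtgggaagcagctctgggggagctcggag

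The STEAP1 window held none of the 4 motifs and the printed STEAP2 window held 1 GC box, 56 bases before the start. The F3 window held 1 AP-1 match, 4 GC boxes and a TATA match 28 bases before the start, and the NECTIN4 window held 2 GC boxes. Over 35116 windows of the same length, 4.9% held the AP-1 letters, 45.0% a GC box, 34.6% CCAAT and 11.5% TATAAA. A match describes the sequence and says nothing of binding. A second promoter window is listed for STEAP2, not printed here, with 2 CCAAT matches and 1 TATA match.

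PSMA had the greatest difference of the 9 antigens between KD2 and both NT and KDR. FOLH1 (ENSG00000086205, GRCh38 chr11:49145092-49208638, minus strand) had 1550, 1406 and 1517 CPM in the NT libraries, 1485, 1548 and 1533 in those of KD1, 291.1, 291.8 and 285.8 in those of KD2, and 1049, 1080 and 1088 in those of KDR. The KD2 libraries lay together far below all the others, and the KDR libraries lay between KD2 and the lowest NT library without overlap on either side. In KD2 the transcript fell to 19.4% of the NT mean, which on the log2 scale is a difference of -2.36 (SE 0.05, 95% interval -2.46 to -2.27, edgeR quasi-likelihood test, adjusted p = 9.5e-21). From KD2 to KDR it rose by 1.89 (SE 0.05, edgeR adjusted p = 5e-19), and it stayed below NT by 0.48 log2 units (log2 fold change -0.48, SE 0.04, adjusted p = 2.3e-08), at 71.9% of the NT mean. The order was therefore KD1 and NT, which did not differ beyond their spread, then KDR, then KD2. In a bulk library, fewer cells with the transcript and less of it per cell cannot be told apart.

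The place of FOLH1 among all transcripts moved accordingly. Per kilobase of exon it ranked 54th of 13466 protein-coding genes tested in NT, 47th in KD1, 561st in KD2 and 85th in KDR. Of the 19373 genes tested, 565 had a larger absolute log2 fold change than FOLH1 between KD2 and NT. FOLH1B, a near-identical copy of FOLH1 between whose reads the counting could not divide with certainty, averaged 1.32 CPM in NT, 0.119 in KD2 and 0.99 in KDR. Of the other relatives of PSMA, NAALADL2 had another pattern: its mean was 45.7 ± 1.40 CPM (SD, n = 3) in KDR, beside 3.39 for NT, 3.96 for KD1 and 1.86 for KD2. NAALADL2 thus exceeded its NT level in KDR, by 3.75 on the log2 scale (SE 0.20, edgeR adjusted p = 1.7e-12).

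The STEAP genes fell in KD2, and no difference from NT passed the test in KDR. STEAP1 (ENSG00000164647, chr7:90154456-90164829, plus strand) had 227.4, 211.8 and 214.2 CPM in the NT libraries, 225.3, 218.4 and 231.6 in those of KD1, 146.5, 143.8 and 144.3 in those of KD2, and 224.4, 233.9 and 224.4 in those of KDR. All KD2 libraries were below every other library, and the other 3 groups overlapped. The KD2 level was 66.5% of NT (log2 fold change -0.59, SE 0.05, edgeR adjusted p = 5.5e-09), and the KDR level exceeded that of KD2 by 0.65 (SE 0.05, adjusted p = 1.3e-09). Between KDR and NT the difference was 0.06, with a 95% interval from -0.04 to 0.17.

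STEAP2 (ENSG00000157214, chr7:90167590-90238137, plus strand), which lies next to STEAP1 on the same strand, had 777.2, 537.9 and 796.3 CPM in the NT libraries, 766.2, 807.9 and 816.9 in those of KD1, 398.8, 368.7 and 351.4 in those of KD2, and 824.5, 811.0 and 830.7 in those of KDR. The second NT library was the lowest outside KD2, and even so no KD2 library reached it. STEAP2 fell to 53.0% of NT in KD2 (log2 fold change -0.92, SE 0.09, edgeR adjusted p = 3.5e-08) and rose by 1.14 (SE 0.09, adjusted p = 1.4e-09) from KD2 to KDR. Its KDR libraries all lay above the NT libraries, by 0.22, a difference that was not called (adjusted p = 0.071). It was 0.06 (adjusted p = 0.3) without the second NT library, and it was called without the first (0.30, adjusted p = 0.024) or the third (0.32, adjusted p = 0.012). The STEAP2 call between KD2 and NT held without that library, at -1.08. STEAP2-AS1, which overlaps both STEAP genes on the opposite strand, averaged 0.876 CPM in NT. The counting used no strand, so its reads cannot be told from theirs where exons overlap.

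**Figure D1:**
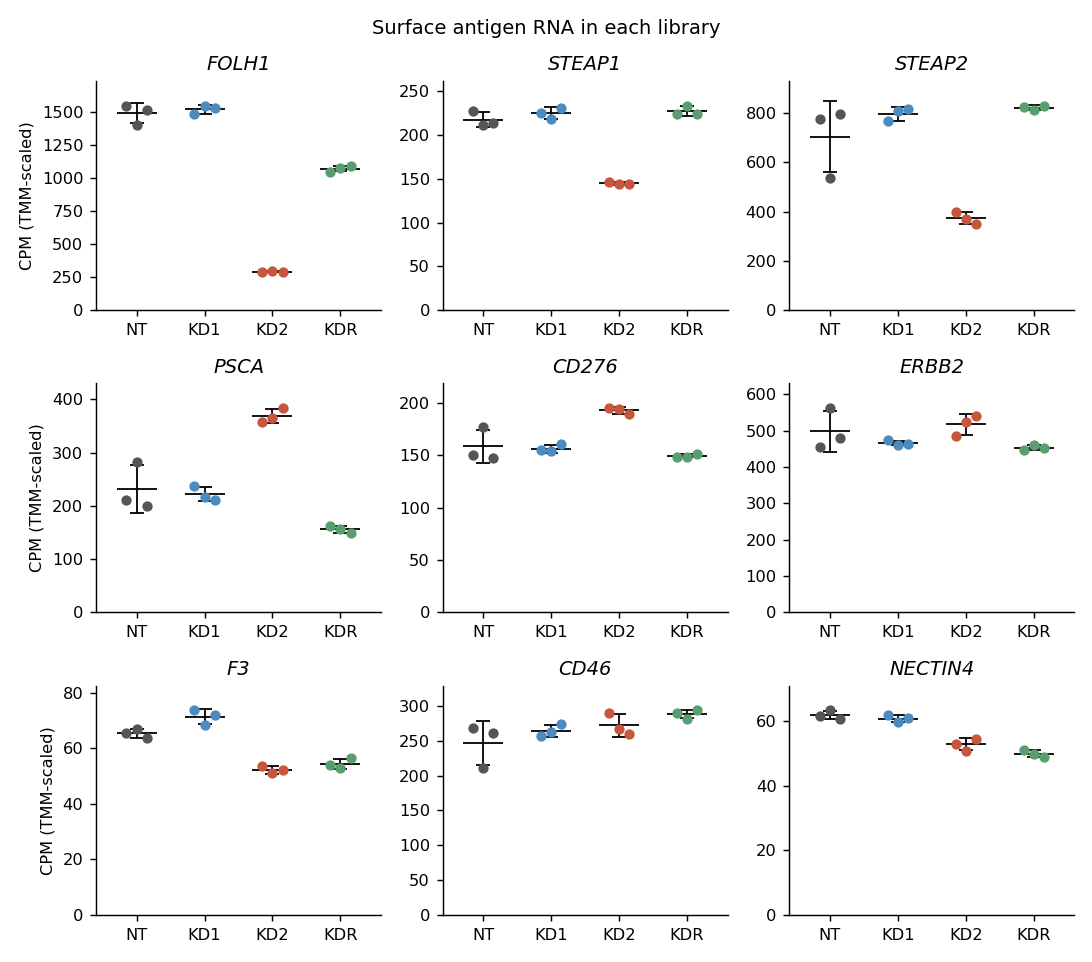
CPM of each of the 9 antigens in the 12 libraries, 1 panel per gene with the 4 groups on the horizontal axis; points are libraries, horizontal lines are means and error bars are SD. FOLH1, STEAP1 and STEAP2 have their 3 lowest libraries in KD2, PSCA and CD276 have their 3 highest there, and F3 and NECTIN4 are low in both KD2 and KDR.

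PSCA moved the opposite way. PSCA (ENSG00000167653, chromosome 8, plus strand) had 211.2, 282.8 and 200.8 CPM in the NT libraries, 237.0, 216.4 and 211.9 in those of KD1, 358.3, 365.1 and 383.9 in those of KD2, and 162.5, 157.5 and 149.2 in those of KDR. The KD2 libraries were the highest of the series and the KDR libraries the lowest, with no overlap with NT or KD1 in either case, and the second NT library was the highest outside KD2. PSCA rose by 0.67 on the log2 scale in KD2 (SE 0.09, edgeR adjusted p = 1.6e-06), or to 159% of NT, and this difference was 0.84 without the second NT library. From KD2 to KDR it fell by 1.24 (SE 0.09, adjusted p = 1.5e-10). KDR ended below NT at -0.57 (SE 0.09, adjusted p = 3e-05), or -0.40 without that NT library. JRK, which overlaps PSCA in the annotation, averaged 58.2 CPM in NT and 62.3 in KD2, a difference that was not called (adjusted p = 0.36).

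CD276 followed PSCA in direction with a smaller difference. CD276 (ENSG00000103855, chr15:73683966-73714514, plus strand) had 150.8, 177.1 and 147.9 CPM in the NT libraries, 154.9, 153.9 and 160.9 in those of KD1, 195.3, 194.0 and 189.7 in those of KD2, and 148.9, 148.8 and 151.4 in those of KDR. All KD2 libraries were above all others, and the remaining 3 groups did not differ by the test. CD276 rose by 0.28 in KD2 against NT (SE 0.06, edgeR adjusted p = 0.00088) and fell by 0.37 from KD2 to KDR (SE 0.06, adjusted p = 6.9e-05). Between KDR and NT the log2 difference was -0.08, with a 95% interval from -0.21 to 0.05.

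ERBB2, the receptor kinase, had group means from 453.5 CPM in KDR to 517.5 in KD2. ERBB2 (ENSG00000141736, chr17:39687914-39730426, plus strand) had 455.1, 562.6 and 479.8 CPM in the NT libraries, 474.0, 462.2 and 462.6 in those of KD1, 486.1, 524.8 and 541.8 in those of KD2, and 447.1, 461.2 and 452.0 in those of KDR. The NT libraries spread from 455.1 to 562.6 and overlapped every other group. Its difference between KD2 and NT was 0.05 (95% interval -0.08 to 0.18, adjusted p = 0.57), and it was called with limma-voom (0.13, adjusted p = 0.015) and without the second NT library (0.15, adjusted p = 0.0032). KD2 minus KD1 was 0.15 (adjusted p = 0.065) with no overlap between the groups. It was called with limma-voom (adjusted p = 0.00079), in a fit of only the groups compared (0.001), and without the first NT (0.036), the second NT (0.00081) or the first KD2 library (0.036). ERBB2 was lower in KDR than in KD2 (-0.19 on the log2 scale, edgeR adjusted p = 0.022). That call was lost with scaling by total count (adjusted p = 0.069) and when the second or the third KD2 library (0.071 and 0.096) or the first or the third KDR library (0.077 and 0.058) was left out. KDR minus NT was -0.14 (adjusted p = 0.11), and -0.20 (adjusted p = 0.018) without the first NT library. MIEN1, which overlaps ERBB2 in the annotation, fell in KD2, from 57.1 to 29.8 CPM (-0.94, edgeR adjusted p = 8.4e-10). PPP1R1B, 51.3 kb from ERBB2, rose from 117.5 to 393.5 CPM (1.74, adjusted p = 8.2e-17).

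Tissue factor and nectin 4 were lower in both KD2 and KDR. F3 (ENSG00000117525, chr1:94529173-94541759, minus strand) had 65.5, 67.0 and 63.6 CPM in the NT libraries, 73.6, 68.6 and 72.1 in those of KD1, 53.5, 51.0 and 52.1 in those of KD2, and 53.9, 52.7 and 56.5 in those of KDR. The libraries of KD2 and KDR shared 1 range, below every library of NT and KD1. F3 fell by 0.32 in KD2 against NT (SE 0.07, edgeR adjusted p = 0.00038) and by 0.27 in KDR against NT (SE 0.07, adjusted p = 0.0035), while KDR and KD2 differed by 0.06 (95% interval -0.08 to 0.19).

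NECTIN4 (ENSG00000143217, chr1:161070998-161089558, minus strand) had 61.7, 63.3 and 60.7 CPM in the NT libraries, 61.8, 59.7 and 60.9 in those of KD1, 53.0, 50.8 and 54.6 in those of KD2, and 51.0, 49.8 and 48.9 in those of KDR. Every library of KD2 and KDR was below every library of NT and KD1. NECTIN4 fell by 0.23 in KD2 (SE 0.06, edgeR adjusted p = 0.0073) and by 0.31 in KDR (SE 0.06, adjusted p = 0.00083), both against NT, and KDR minus KD2 was -0.08 (95% interval -0.22 to 0.05). These pairs of intervals do not show that KD2 and KDR were equal for F3 or NECTIN4, only that no difference passed the test.

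CD46, the complement cofactor, was higher in KDR than in NT, its 1 call among the 6 comparisons. CD46 (ENSG00000117335, chr1:207752037-207795513, plus strand) had 267.6, 211.2 and 261.2 CPM in the NT libraries, 256.7, 262.8 and 273.6 in those of KD1, 290.3, 267.3 and 259.0 in those of KD2, and 289.6, 281.5 and 293.3 in those of KDR. The second NT library was the lowest, and the other NT libraries lay within the range of KD1 and KD2. Its KDR level exceeded NT by 0.22 (SE 0.07, edgeR adjusted p = 0.019), by 0.12 (adjusted p = 0.04) without the second NT library. This call was lost in a fit of only the groups compared (adjusted p = 0.073) and when the first or the third KDR library was left out (0.061 and 0.072). KDR minus KD1 was 0.12 (adjusted p = 0.21), and this difference was called with limma-voom (adjusted p = 0.017), in a fit of only the groups compared (0.0015) and without the second NT library (0.02). KD2 and NT did not differ by the test (0.14, adjusted p = 0.12), although the difference was 0.21 (adjusted p = 0.032) without the first NT library. MIR29B2CHG, which overlaps CD46 on the opposite strand, averaged 11.3 CPM in NT and 22.2 in KDR (0.97, edgeR adjusted p = 1.2e-06). The counting used no strand, so its reads cannot be told from those of CD46 where exons overlap. Of 7 other complement regulators listed, 2 were tested, CD55 and CD59. Both were lower in KD2 than in NT, where 18.2% of all genes were lower. The NT and KD2 means of CD55 were 54.6 and 29.8 CPM (-0.88, edgeR adjusted p = 1.5e-09), with 57.9 in KDR. Those of CD59 were 102.3 and 83.7 (-0.29, adjusted p = 0.00068), with 102.8 in KDR.

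Counted together, KD2 against NT had 7 of the 9 antigens called, 5 lower (FOLH1, STEAP1, STEAP2, F3 and NECTIN4) and 2 higher (PSCA and CD276), where 35.9% of all genes tested were called, 18.2% lower and 17.8% higher. The same 7 had no overlap between the KD2 and NT libraries, against 42.5% of all genes. FOLH1 was the 1 antigen called with a log2 change of 1 or more, as were 9.27% of genes. The median absolute log2 fold change of the 9 was 0.32, beside 0.31 over all genes. The median over all genes also holds spread between libraries. In KD1 against NT, where no gene was called, it was 0.12, beside 0.06 for the 9. The shares and medians over all genes, here and in the other comparisons, include genes at far lower levels than the 9 and were not matched for level. KDR against KD2 had 6 called, 3 higher (FOLH1, STEAP1 and STEAP2) and 3 lower (PSCA, CD276 and ERBB2), against a background of 32.4% of genes called, 15.3% higher and 17.1% lower. The same 6 had no overlap between groups (49.9% of all genes), and FOLH1, STEAP2 and PSCA were called with a log2 change of 1 or more (8.69% of all genes). The median absolute difference was 0.37 over the 9 and 0.29 over all genes. KDR against NT had 5 called, of which FOLH1, PSCA, F3 and NECTIN4 were lower and CD46 higher, where 27.5% of genes were called, 14.5% lower and 13% higher. Those 5 and STEAP2 had no overlap between groups (38.2% of all genes), and no antigen was called with a log2 change of 1 or more (6.45% of all genes). The median absolute difference was 0.22 over the 9 and 0.27 over all genes. Each pair of these comparisons shares a group (KD2, KDR or NT), so their values are set side by side and an opposite sign in KDR against KD2 is no independent evidence.

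KD1 gave no call. None of the 9 antigens and none of the 19373 genes (0%) passed the edgeR test against NT. Before adjustment, 1185 genes and none of the 9 had p under 0.05, and both DESeq2 and limma-voom called 0 genes. The adjusted p of the 9 was 0.79 or more, and the widest 95% intervals were those of STEAP2, -0.01 to 0.37, and PSCA, -0.24 to 0.12. F3 was the 1 gene of the 9 whose KD1 and NT libraries did not overlap (9.4% of all genes had none), with a log2 difference of 0.13 (adjusted p = 0.79). KD2 against KD1, the direct test of the libraries labelled as knock downs, called the same 7 antigens as KD2 against NT, with 35.5% of all genes called, and gave -2.39 for FOLH1, 0.74 for PSCA and -1.10 for STEAP2 on the log2 scale. Of these, FOLH1 and STEAP2 passed a log2 change of 1 (8.94% of all genes), and 8 antigens, the 7 and ERBB2, had no overlap (49.7%). The median absolute difference was 0.45 over the 9 and 0.31 over all genes. The NECTIN4 call (adjusted p = 0.017) was lost without the first or the third KD1 library (0.062 and 0.052) or the second KD2 library (0.09). KDR against KD1 called 4, FOLH1, PSCA, F3 and NECTIN4, all lower, with 27.1% of all genes called and 13.8% lower. None of the 4 had a log2 change of 1 or more (6.46% of all genes), and 7 antigens had no overlap (47.1%). The median absolute difference was 0.12 over the 9 and 0.26 over all genes.

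**Figure D2:**
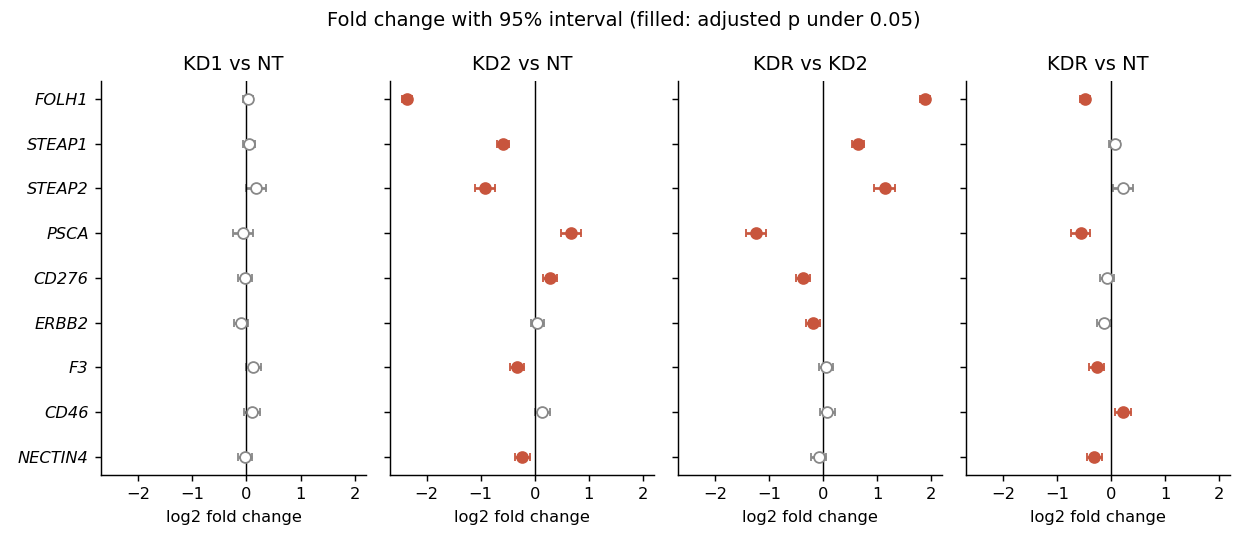
Log2 fold change of the 9 antigens in KD1 against NT, KD2 against NT, KDR against KD2 and KDR against NT; points are estimates of the edgeR fit, bars are 95% intervals, and filled points passed an adjusted p under 0.05. No point is filled for KD1, FOLH1 is the farthest from 0 in KD2 against NT (-2.36) and KDR against KD2 (1.89), and PSCA lies on the opposite side of 0 from FOLH1 in both.

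The ranking of the antigens by transcript level changed between groups. In CPM per kilobase of exon, the mean order in NT was FOLH1 at 279.5, STEAP1 at 141.1, PSCA at 131.4, STEAP2 at 80.7, ERBB2 at 48.4, CD276 at 28.9, F3 at 22.6, NECTIN4 at 17.9 and CD46 at 15.9. The order of the means was the same in KD1. In the second NT library PSCA stood above STEAP1, so those neighbours were not separated in NT, and CD46 and NECTIN4 exchanged places in the third KD1 library. In KD2 PSCA led at 209.4 ± 7.52 (SD, n = 3), followed by STEAP1 at 93.8 ± 0.92, FOLH1 at 54.3 ± 0.62, ERBB2 at 50.1 ± 2.77 and STEAP2 at 42.8 ± 2.75, an order that every KD2 library kept. In KDR FOLH1 was again first at 201 ± 3.94 and STEAP1 second at 147.4 ± 3.54, while STEAP2 at 94.3 ± 1.16 stood above PSCA at 88.7 ± 3.80 in every library.

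The ratio of FOLH1 to PSCA shows the exchange within each library, where both are read from the same RNA. Per kilobase the ratio was 2.43, 1.64 and 2.50 in NT, 2.07, 2.36 and 2.39 in KD1, 0.269, 0.264 and 0.246 in KD2, and 2.13, 2.27 and 2.41 in KDR. Only the KD2 libraries had more PSCA than FOLH1. The KDR ratios overlapped those of NT only through the second NT library, at 1.64, and lay below the other NT ratios, and both genes were below NT in KDR. The means were 2.19 ± 0.473 in NT, 0.26 ± 0.0119 in KD2 and 2.27 ± 0.139 in KDR (SD, n = 3). The pair was chosen with the opposite directions of its genes known, so the ratios are given as a description. FOLH1 over STEAP1 was 1.98 ± 0.0649 in NT, 0.579 ± 0.00759 in KD2 and 1.36 ± 0.0356 in KDR, and no KDR library reached NT.

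The sum over the 9 genes also differed. Their summed level was 758.1 to 776.1 CPM per kilobase in NT, 777.8 to 785.6 in KD1, 533.0 to 542.7 in KD2 and 651.2 to 658.9 in KDR. FOLH1 supplied 34.5% to 37.5% of that sum in NT, 9.87% to 10.3% in KD2 and 30.2% to 31.2% in KDR. PSCA supplied 15.0% to 21.0% in NT, 38.1% to 40.1% in KD2 and 13.0% to 14.2% in KDR. None of these ranges of KD2 touched those of the other groups.

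**Figure D3:**
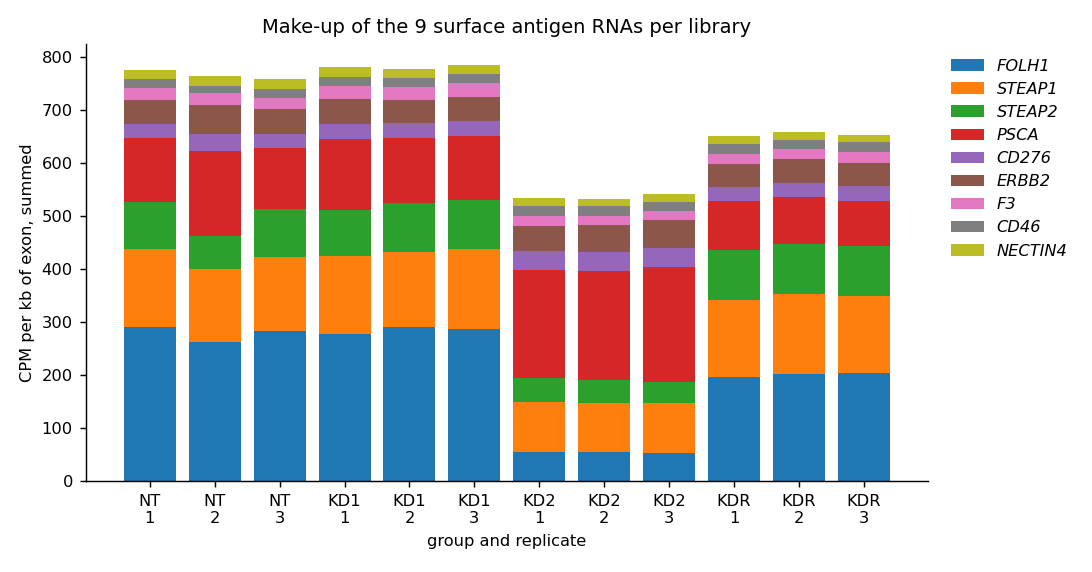
Makeup of the summed level of the 9 antigens (CPM per kilobase of exon, stacked by gene), with 1 bar for each of the 12 libraries. FOLH1 is the largest segment in every NT, KD1 and KDR library and PSCA in every KD2 library, where the whole sum is 533.0 to 542.7 per library against 758.1 to 776.1 in NT.

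The luminal markers were mostly lower in KD2. Their summed level was 15140 to 18190 CPM in NT, 15180 to 15620 in KD1, 10660 to 10980 in KD2 and 15400 to 15790 in KDR. KLK3 was the largest part of this sum, at 8955 CPM in NT and 6282 in KD2. Of the 9 markers 8 were lower in KD2 than in NT, where 18.2% of all genes were lower. From KD2 to KDR 8 were higher, where 15.3% of all genes were higher. Acid phosphatase (ACP3) went from 621.2 CPM in NT to 199.1 in KD2 and 312.2 in KDR. Neuroendocrine markers summed to 7.95 to 9.56 CPM in KD2, 5.59 to 7.16 in NT and 3.93 to 4.39 in KDR, and fibroblast markers to 1.84 to 2.78, 3.47 to 5.12 and 2.95 to 4.61. The neuroendocrine sums were spread over several genes, and different ones moved in KD2 and in KDR. ENO2 (2.03 CPM in NT and 4.67 in KD2) was the 1 of 5 tested neuroendocrine markers called in KD2 against NT (35.9% of all genes). INSM1 went from 2.75 in NT to 2.37 in KD2 and 0.506 in KDR. COL1A1 made up most of the fibroblast sum (3.94 in NT and 1.49 in KD2). The part of these differences in the antigens' values was not tested.

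The genes around the STEAP pair fell with it. Of 9 tested genes within 250 kb of STEAP1, STEAP2 among them, 7 were lower in KD2 than in NT and none was higher, with a median log2 fold change of -2.28, where 18.2% of all genes were lower. From KD2 to KDR 6 of the 9 were higher, with a median of 2.42, where 15.3% of all genes were higher. CFAP69, a gene for a ciliary and sperm flagellar protein 80.3 kb away, fell from 125.9 ± 17.3 CPM in NT to 25.7 ± 2.96 in KD2 and stood at 139.4 ± 7.30 in KDR (SD, n = 3), with log2 fold changes of -2.29 and 2.43 (edgeR adjusted p = 1.6e-14 and 5.5e-15). FAM237B went from 10.1 CPM to 1.53 and 10.4 (-2.73 and 2.77). Both of these had larger log2 changes than STEAP1 (-0.59) and STEAP2 (-0.92) themselves, and 3 genes listed without a symbol fell too. Of these, the gene 101 kb away lies within the span of CFAP69 and the gene 148 kb away overlaps FAM237B, on opposite strands. The counting used no strand, so their reads may not be separate from those of CFAP69 and FAM237B. Farther out, CLDN12, a claudin gene 219 kb away, fell by 0.50 in KD2 (adjusted p = 1.7e-05) and did not differ between KDR and KD2 by the test (0.17, adjusted p = 0.093). GTPBP10 lies between FAM237B and CLDN12 by distance and was not called in KD2 (-0.18, adjusted p = 0.14). CDK14, 228 kb from STEAP2, rose by 0.22 (adjusted p = 0.011).

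**Figure D4:**
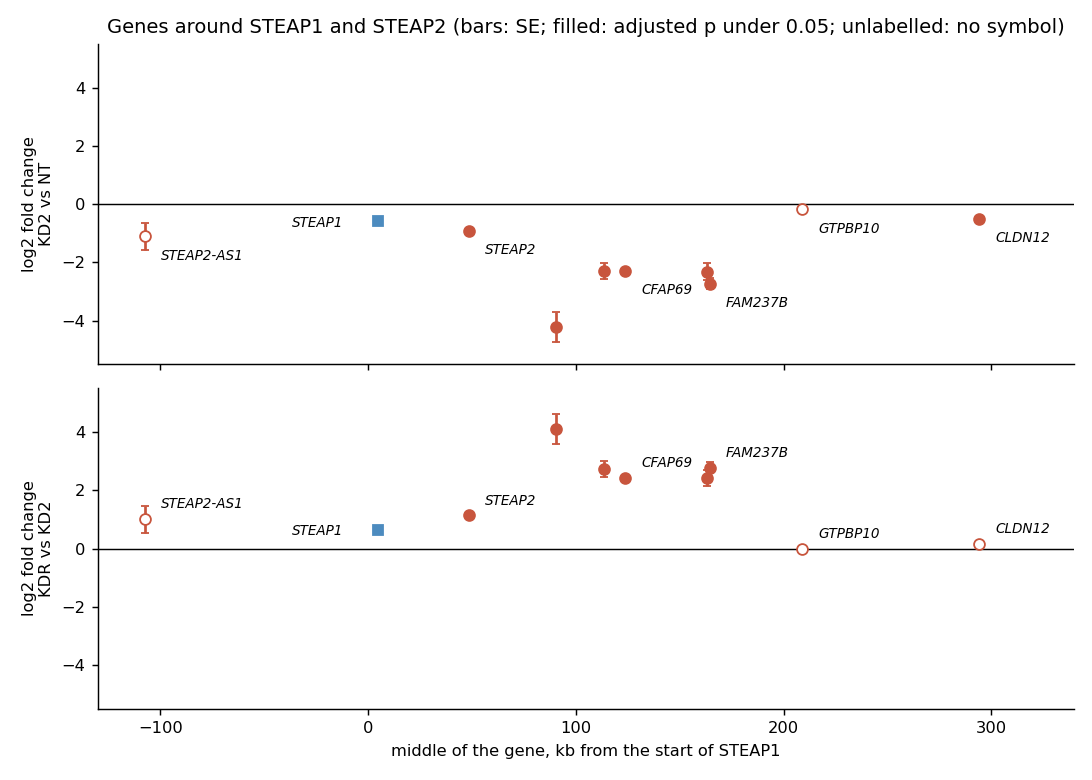
Log2 fold change (with SE) of the tested genes within 250 kb of STEAP1, by the distance of each gene's midpoint from the start of STEAP1 in kilobases, for KD2 against NT and KDR against KD2; the square is STEAP1 and filled points passed an adjusted p under 0.05. Of the 9 neighbours 7 lie below 0 with a filled point in KD2 against NT, and 6 lie above 0 with a filled point in KDR against KD2.

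Neighbours of the other antigens are counted here in KD2 against NT, where 17.8% of all genes were higher and 18.2% lower. PSCA had 6 tested neighbours, 3 of them higher in KD2 than in NT and none lower: ARC (6.96 to 18.9 CPM), the LY6-family gene LYNX1 (5.86 to 10.3) and THEM6 (35.9 to 45.9). All 3 were lower in KDR than in KD2, where 17.1% of all genes were lower. ERBB2 had 12, of which 6 were higher and 1, MIEN1, was lower, and CD276 had 5, of which 2 were higher and 1 lower. F3 had 4, of which 1 was lower and none higher. CD46 had 3, of which 2 were higher and none lower. NECTIN4 had 20, of which 2 were higher and 4 lower. FOLH1 had 2, neither of them called.

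Relatives of the antigens moved only in part. They are counted in KD2 against NT, where 17.8% of all genes were higher and 18.2% lower. Among 7 tested ERBB receptors and ligands 1 was higher and 4 were lower in KD2 against NT, with a median of -0.24: the ligand gene TGFA fell from 387.6 CPM to 215.1 (-0.85, edgeR adjusted p = 4.2e-11), HBEGF from 5.71 to 2.21 and the partner receptor ERBB3 from 486.4 to 411.4, and EGFR rose from 139.5 to 166.8 (0.26, adjusted p = 0.0015). EGFR and ERBB3 were at 139.6 and 480.7 CPM in KDR and not called against NT, whereas TGFA at 272.9 and HBEGF at 2.25 were below NT. Of 8 tested nectins and nectin-like genes 4 were lower and none higher (median -0.18), among them NECTIN1 (92.9 to 67.8 CPM) and CADM2 (9.17 to 4.00).

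Of 5 tested B7 genes 1 was called in KD2 against NT, where 35.9% of all genes were called. This was NCR3LG1, the ligand of the natural killer receptor NKp30, higher in KD2 (18.6 to 34.6 CPM, log2 fold change 0.89, edgeR adjusted p = 2.4e-07). CD274, which encodes PD-L1, averaged 0.557 CPM in NT and 0.778 in KD2, and was not called. In the LY6/uPAR family to which PSCA belongs, 2 of 7 were higher and 2 lower, beside 17.8% and 18.2% of all genes. LYPD3, which is itself an antibody target, fell from 22.5 to 4.77 CPM in KD2 (-2.25, adjusted p = 5.3e-12) and stood at 12.1 in KDR. Its direction was opposite to that of PSCA in KD2 against NT, and both were below NT in KDR. STEAP3, on another chromosome than STEAP1 and STEAP2, rose from 33.6 to 41.2 CPM in KD2 (0.30, adjusted p = 0.019). Among 3 tested genes of the tissue factor pathway, the thrombin receptor F2R rose from 4.61 to 8.13 CPM (0.81, adjusted p = 0.00058).

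The antigens were next set beside 48 other genes of surface or secreted proteins used as targets, of which 32 were tested. In KD2 against NT 13 were higher and 10 lower, where 17.8% of all genes were higher and 18.2% lower. Their median log2 fold change was 0.16, beside -0.01 over all genes. In KDR against KD2 8 were higher and 10 lower (15.3% and 17.1% of all genes). In KDR against NT 7 were higher and 5 lower (13% and 14.5% of all genes). SLC45A3 (prostein) fell from 2125 ± 162 CPM in NT to 603 ± 17.8 in KD2 and was at 2112 ± 32.0 in KDR (SD, n = 3), a difference from NT in KD2 of -1.82 (edgeR adjusted p = 2.9e-18). TMEFF2, a transmembrane protein of prostate and brain, went from 13.5 CPM in NT to 0.159 in KD2 and 18.6 in KDR. SLC44A4, a choline transporter, went from 421.5 to 253.4 and 401.4 CPM. GRPR, the receptor of bombesin-type radioligands, did the reverse, from 4.52 to 17.9 and 4.19 (1.98 in KD2, adjusted p = 2.8e-10). SLC45A3 and SLC44A4 were not called between KDR and NT, where FOLH1 was called lower.

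**Figure D5:**
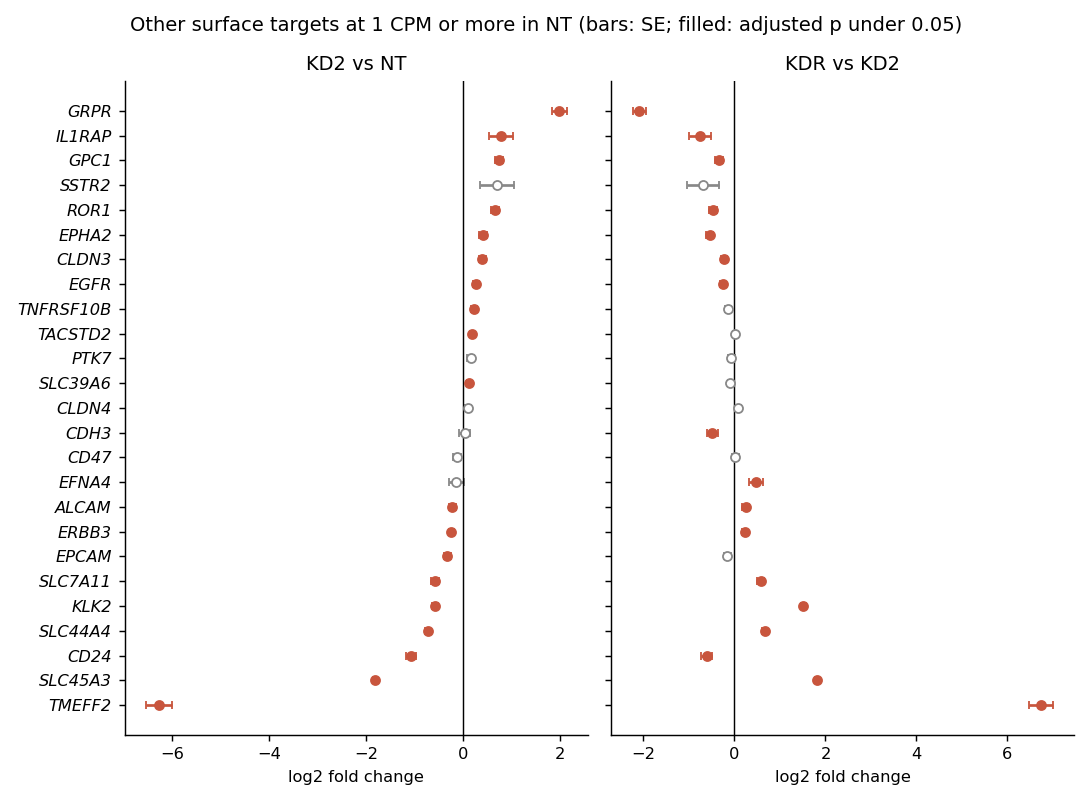
Log2 fold change (with SE) of the 25 other target genes with at least 1 CPM in NT, for KD2 against NT and KDR against KD2, sorted by the first; filled points passed an adjusted p under 0.05. TMEFF2 (-6.28) and SLC45A3 (-1.82) are at the low end and GRPR (1.98) at the high end of KD2 against NT, and in KDR against KD2, which shares the KD2 libraries, they are at 6.74, 1.81 and -2.09.

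By the root-mean-square difference of centred log2 CPM over the 12 libraries, the 2 protein-coding genes of 10385 most like each antigen were the following. FOLH1 was followed by CLDN8 (0.13) and COLEC12 (0.22), STEAP1 by CAT (0.04) and ZNF761 (0.06), STEAP2 by ZBTB43 (0.12) and NFKBIZ (0.12), and PSCA by CREB3L1 (0.10) and KRT80 (0.11). In the order NT, KD1, KD2 and KDR, CLDN8 averaged 22.2, 22.4, 3.66 and 15.6 CPM, and CREB3L1 361.6, 346.3, 558.2 and 244.4. CD276 was followed by PTDSS1 (0.03) and NUCB1 (0.04), ERBB2 by FBXL15 (0.03) and ARHGDIA (0.04), F3 by SPOCK1 (0.06) and UBAP1 (0.06), CD46 by NUCKS1 (0.03) and XPO1 (0.04), and NECTIN4 by PCCB (0.04) and KLF10 (0.04). A flat gene is close to every other flat gene by this measure. Within the 9, the closest pairs were F3 with NECTIN4 (0.097) and CD276 with ERBB2 (0.1).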

How the data were processed

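Per the file headers, the deposited values are raw counts of reads per gene, made by the authors with featureCounts 1.6.4 over exons of Ensembl release 111 on GRCh38, with no strand or pair option. Per the submitters' processing notes, FastQC, cutadapt and HISAT2 were also used, with versions not given in the sources used here. Per the labels, libraries were made from total RNA with poly-A selection. Symbols were matched for 62666 of 63241 genes, which hold 99.9% of counts.

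The counts of all 12 libraries were fitted together by group in edgeR 4.0.16 (R 4.3.3) after its filter on low counts, with TMM scaling, the quasi-likelihood test and Benjamini-Hochberg adjustment over 19373 genes. A call is an adjusted p under 0.05. The fit was tested on simulated data with the same spread in all groups, so that test does not cover the wider spread of NT. CPM use TMM-scaled totals, and levels per kilobase divide by the merged exon length in the files. Alternatives used DESeq2 1.42.0, limma 3.58.1 (voom), other filters and scalings, a replicate block, and each library left out in turn. The 9 antigens are named throughout, with up to 4 genes of each listed family ranked by adjusted p in KD2 against NT, neighbours within 250 kb, and the most like genes; KLK3, INSM1, KRT5, CD3E, CD68, CD274 and the neighbours described were picked from their lists after their values were seen. The antigens and lists were chosen with earlier results of these data known. Sequences come from RefSeq tables of GRCh38.p14.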

Additional observations from a re-analysis of the deposited data

How the results depend on the processing

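Each of the 54 log2 fold changes (9 antigens in 6 comparisons) was recomputed under 20 alternatives. Of these 1080 values 1042 kept direction and side of the threshold, 11 lost the call, 16 gained one and 11 changed sign, none of the last from a called value. The signs that changed were, in KD1 against NT, FOLH1 -0.0016, PSCA 0.056 and CD276 0.045 with limma-voom, and -0.0091, 0.11 and 0.070 without the second NT library. ERBB2 in KD2 against NT became -0.0099 without the first NT library. CD46 in KD2 against KD1 became -0.0030 with scaling by total count and -0.0064 without the first KD2 library. STEAP1 in KDR against KD1 became -0.0076 without the second KD1 library and -0.0062 without the second KDR library. The cause was not tested. Over the 12 refits that each left out 1 library, these results ranged from -0.0091 to 0.059 (FOLH1), -0.15 to 0.11 (PSCA) and -0.062 to 0.070 (CD276) in KD1 against NT, -0.0099 to 0.15 (ERBB2), -0.0064 to 0.076 (CD46) and -0.0076 to 0.035 (STEAP1).

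When calls also had to reach a log2 change of 1 in size, there were 1 antigen and 1796 genes in KD2 against NT, 3 and 1683 in KDR against KD2, 0 and 1250 in KDR against NT, 2 and 1732 in KD2 against KD1, and 0 and 1252 in KDR against KD1, by the construction of that limit. With no filter on low counts, 23 genes and no antigen were called in KD1 against NT. Leaving out 1 library at a time gave 7 to 8 antigens and 5958 to 7582 genes in KD2 against NT, 5 to 6 and 5093 to 7876 in KDR against KD2, 4 to 7 and 4177 to 6180 in KDR against NT, 6 to 8 and 5856 to 8219 in KD2 against KD1, 4 to 5 and 4091 to 6971 in KDR against KD1, and 0 and 0 in KD1 against NT.

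Little pairing by replicate number was seen: of 18 pairs with the same number, 1 had a correlation of deviations above 0.1 (range -0.16 to 0.25). Pairs with different numbers were not computed for reference, so this does not show that pairing was absent. With the replicate block the antigens called were 0 in KD1 against NT, 7 in KD2 against NT, 6 in KDR against KD2, 6 in KDR against NT, 7 in KD2 against KD1 and 4 in KDR against KD1, with 0, 6882, 6190, 5219, 6789 and 5141 genes. The call added was STEAP2 in KDR against NT (0.23, adjusted p = 0.046). The antigens held at least 1248 counts in each library, and each group held 3 libraries.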
